A study of Mus musculus with 143 samples.

Results

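Growing mouse oocytes of postnatal day 20 that lacked DIS3, and their controls, were compared by RNA sequencing of single oocytes after removal of ribosomal RNA (RiboMinus). The members were chosen by the sample titles: 8 libraries labelled dis3cKO and 8 labelled ctr at p20, which makes 16 of the 143 samples of the series. A cKO is a conditional knockout, and per the labels the mutant animals were built with CRISPR/Cas9. Neither the driver of the deletion, the alleles of the controls, the strain background nor the number of females per group is given in the labels. Each title also carries a tag, 1 or 2, with 4 libraries per tag in each group, and the labels do not say what the tag stands for. Any difference in animals or background between the groups therefore cannot be told apart from the genotype. The p-values of genes at p20 measure the spread between single libraries, estimated over all 4 p20 RiboMinus groups in 1 fit. The 16 libraries are set beside 4 further RiboMinus groups of 8: Exosc10 cKO and the double knockout (dcKO) at p20, and GV oocytes (germinal vesicle stage) of adults, as controls and as Dis3 cKO. The adult libraries share no control with the p20 libraries. Whether loss of DIS3 in the growth phase changes the oocyte's RNA is the question of the comparison.

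The RNA exosome is a ring of protein subunits that threads RNA into attached 3′ to 5′ ribonucleases. In the nucleus these are DIS3, which degrades RNA processively, and EXOSC10, which trims it. Cofactor complexes hand over substrates such as upstream antisense transcripts, enhancer RNAs, other long noncoding RNAs (lncRNAs) and the flanks of ribosomal and small nuclear RNAs. An oocyte at p20 is still enlarging and transcribing, and stores messenger RNAs that it later translates without new transcription.

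Gene counts per library were between 16043788 and 19702270 in controls and between 9566019 and 15335017 in Dis3 cKO, so the groups did not overlap in depth, and its part in the results was not tested. Gene levels are given as CPM, the counts per 1e+06 counts of a library whose size was scaled by the trimmed mean of M-values (TMM), and are not corrected for length. Each library detected between 12556 and 13422 genes at 1 CPM or more. The 15 oocyte markers were all at a mean of 1 CPM or more, with summed levels of 14975 to 18304 CPM in controls and 14710 to 18433 CPM in Dis3 cKO. Of the 14 granulosa and cumulus markers 8 reached 1 CPM, and their sums were 134 to 181 CPM in controls and 125 to 207 CPM in Dis3 cKO. The 11 theca and stroma markers summed to at most 5.87 CPM in both groups. Of 10 blood and immune markers 5 were at 0 in all 16 libraries and Pecam1 alone reached 1 CPM. None of the tested markers of any of these lists passed the test.

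Dis3 itself stood at 6.27 CPM in the lowest, 13.9 in the median and 20.1 in the highest control library. In Dis3 cKO the lowest library was at 1.31, the median at 1.69 and the highest at 4.12 CPM. The groups did not overlap, and the log2 fold change was -2.74 (SE 0.26, edgeR quasi-likelihood test with Benjamini-Hochberg adjustment, adjusted p 6.0e-10, n = 8 each). Dis3 overlaps Pibf1 in the RefSeq annotation, and whether the authors' counting used strand is not given in the sources used here. Exosc10, the other nuclear ribonuclease, had a median of 118 CPM in controls and 124 CPM in Dis3 cKO (log2 0.06, SE 0.33, edgeR adjusted p 0.952).

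Across all genes, 1171 of 15882 tested were called at an edgeR adjusted p under 0.05, which is 7.37%. Of these 574 were higher in Dis3 cKO (3.61% of tested) and 597 lower (3.76%). About as many genes differed from the same controls in p20 Exosc10 cKO (1183, 7.45%) and many more in dcKO (8531, 53.7%). Most Dis3 cKO changes were small: 608 of the 1171 (51.9%) were under 1 on the log2 scale, 298 lay from 1 to under 2, and 157 reached 3 or more, which is 0.989% of the genes tested. Those 157 comprised 50 increases and 107 decreases. With counts summed per group and tag, which leaves 2 sums against 2, 286 genes were called. Scaling to the ERCC counts moved the median of all genes by -0.31 on the log2 scale and gave 968 calls, of which 12.8% were higher in Dis3 cKO, against 49% with TMM. All changes here are therefore relative to the bulk of the RNA. For 427 tested genes (2.69%) the 8 knockout and 8 control libraries did not overlap in CPM, and 390 of them were called.

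Of the called genes, 1049 could be tested within tag 1 and within tag 2, with 4 libraries against 4. Within tag 1 alone 553 of these passed the test, within tag 2 alone 308, and 227 passed in both. Their direction was the same in both tags for 1049, which the call on the pooled libraries nearly fixes. Within a group, tag 2 against tag 1 gave 46 genes in controls (0.29% of tested). In Dis3 cKO it gave 0 genes (0%) with edgeR, where 482 had an unadjusted p under 0.05 and DESeq2 also gave 0.

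**Figure D1:**
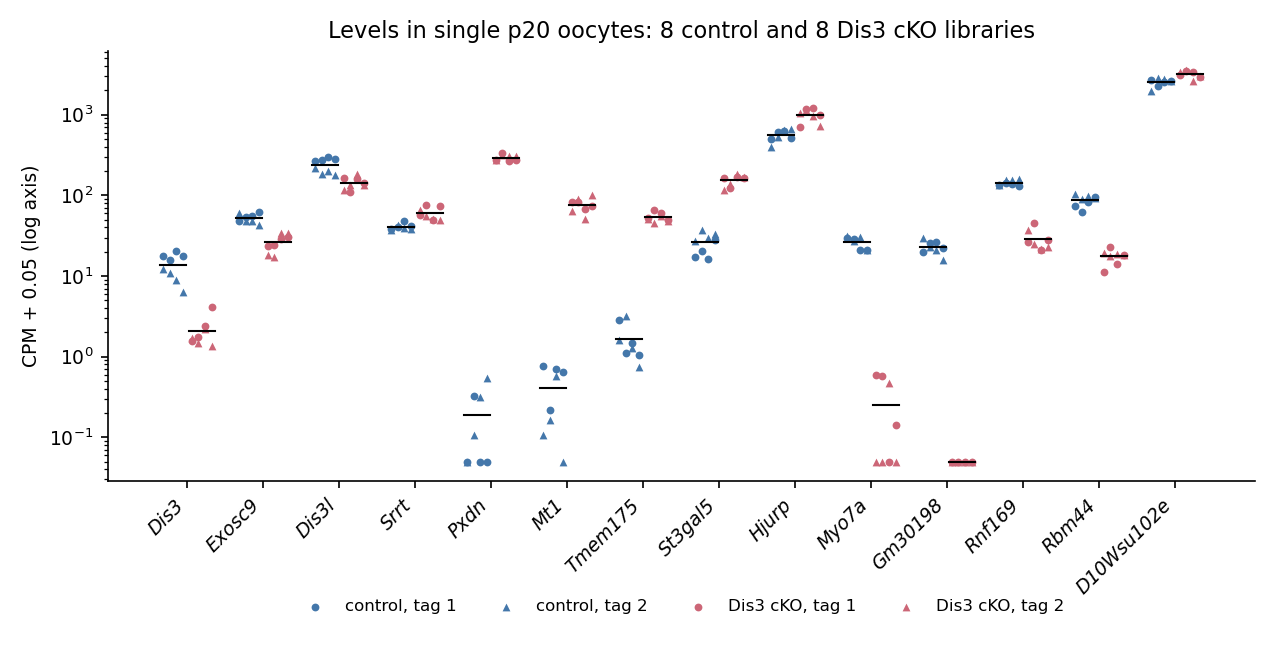
Level of 14 genes in each of 8 control and 8 Dis3 cKO libraries at p20. The vertical axis is CPM plus 0.05 on a log scale, circles are tag 1, triangles tag 2, and black lines are group means. Dis3 falls from a mean of 13.7 to 2.04 CPM, Pxdn and Mt1 go from under 1 CPM to a median of 291 and 77.3 CPM, Gm30198 is at 0 in all 8 knockout libraries, and D10Wsu102e, from a median of 2623 to 3258 CPM, changes by a small amount at a high level.

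Of the 12 tested genes for the exosome ring and its ribonucleases 3 fell and none rose, beside 3.76% lower over all genes. Besides Dis3, these were Exosc9 and Dis3l. Exosc9, a subunit of the ring, was at 43.5 CPM in the lowest, 51.4 in the median and 62.5 in the highest control and at 16.9, 26.5 and 34.6 CPM in Dis3 cKO. The groups did not overlap and the log2 change was -0.996 (SE 0.19, edgeR adjusted p 0.00030), against -2.02 in adult oocytes. Dis3l, the cytoplasmic relative of Dis3, stood at 177, 242 and 296 CPM in controls and at 110, 140 and 185 CPM in Dis3 cKO, where the groups overlapped slightly (log2 -0.73, edgeR adjusted p 1.8e-05). In adults the Dis3l change was 0.12 (edgeR adjusted p 0.239), and the effect differed between the stages by 0.84 (edgeR adjusted p 7.4e-05). In p20 Exosc10 cKO Exosc9 averaged 34.4 CPM and Dis3l 266 CPM, against 52.0 and 237 CPM in p20 control.

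Among 21 tested exosome cofactor genes, 2 rose and none fell, beside 3.61% higher and 3.76% lower over all genes, so the count is within about 1 gene of that share. Srrt encodes ARS2, which binds the nuclear cap-binding complex, and Ncbp2 encodes the small subunit of that complex. Srrt was at 37.2, 40.2 and 47.6 CPM in the lowest, median and highest control and at 49.1, 55.8 and 75.0 CPM in Dis3 cKO. No knockout library was as low as any control, and the log2 change was 0.55 (SE 0.10, edgeR adjusted p 0.00027). Its adult change was larger, at 1.85, with a difference of 1.27 between the stages (edgeR adjusted p 1.4e-05). Ncbp2 went from a median of 33.3 to 46.3 CPM without overlap (log2 0.52, edgeR adjusted p 0.00032), while its adult change was -0.01 (edgeR adjusted p 0.955). With ERCC scaling neither call was kept (Srrt 0.24, edgeR adjusted p 0.385, and Ncbp2 0.20, edgeR adjusted p 0.513). Both were also higher in p20 Exosc10 cKO, where Srrt averaged 66.4 CPM and Ncbp2 42.3 CPM, against 40.5 and 32.7 CPM in p20 control. The median over these cofactors was 0.07, beside 0.00 over all genes tested.

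The p20 calls were then set beside those in adult GV oocytes, where Dis3 cKO changed 4305 of 15334 genes (28.1%). Of the p20 genes, 1079 were also tested in adults, and 378 were called in the same direction there (211 higher and 167 lower). That is 35% of the p20 genes and 8.98% of the 4210 adult calls that were tested at p20. A further 51 were called in the opposite direction. Among genes not called at p20, 27.6% were called in adults in either direction, beside 39.8% of the p20 genes (429 of 1079). The effect of the knockout differed between the stages for 1610 of 17267 genes (9.32%), which included 59 of the 378.

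RNAs that RefSeq types as lncRNA and genes to which it gives no biotype are described first among the shared increases. Of 43 lncRNA genes that rose at p20, 41 were tested in adults and 29 of these (70.7%) also rose there, with 0 called in the opposite direction. Over all classes the shared share was 38.1% of the increases and 31.8% of the decreases. Of 55 tested genes with no biotype that rose at p20, 44 (80%) rose in adults too, and 2 fell. For protein-coding genes the count was 126 of 433 (29.1%), with 20 falling in adults. Among decreases the order was the other way: 2 of 17 lncRNA genes and 6 of 33 without a biotype fell at both stages, against 154 of 430 protein-coding genes (35.8%). How many of all tested lncRNA and untyped genes rose in adults is not given here, so these shares lack the rate of their class.

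Together the lncRNA and untyped genes were 73 of the 211 shared increases (34.6%), 8 of the 167 shared decreases (4.79%) and 13.2% of all genes tested at both stages. Their median change was 1.26 on the log2 scale at p20 and 2.58 in adults. In p20 dcKO 61 of the 73 were called higher and in p20 Exosc10 cKO 46, against the same controls. Over all genes tested the shares called higher there were 26.6% and 3.95%. The 73 are low-abundance RNAs, with medians of 3.43 CPM for the lncRNA and 3.20 CPM for the untyped genes in p20 Dis3 cKO. Some may have passed the filter on low counts only through a group in which they are high, so the counts describe them and are not a test of the class.

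Single members show the pattern, named after their values were seen. They come from 12 shared increases with the largest adult rise, of which 2 lost their p20 call with counts summed per tag. 2610017A05Rik, an lncRNA gene that overlaps Ipo8, ranged from 0.221 over a median of 0.392 to 1.69 CPM in controls and from 0.614 over 1.89 to 3.93 CPM in Dis3 cKO. The groups overlapped, and the log2 change was 1.84 (SE 0.36, edgeR adjusted p 0.00064). In adults it rose by 5.13, in p20 Exosc10 cKO by 2.56 and in dcKO by 5.35, and its adult change exceeded that at p20 by 3.24 (edgeR adjusted p 0.00038). 2810454H06Rik, which overlaps Gpr19, had a control median of 0.300 and a knockout median of 1.68 CPM and rose by 2.09 at p20 and 4.85 in adults. The adult rise of both genes was uneven by tag: 2610017A05Rik averaged 33.5 CPM in 1 tag of adult Dis3 cKO and 8.19 CPM in the other, and 2810454H06Rik 17.2 and 1.82 CPM. Gm12829 had a control maximum of 0.352 CPM and a knockout minimum of 0.547 CPM, so its groups did not overlap, with changes of 2.79 at p20 and 4.73 in adults.

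Among protein-coding genes with low counts, Btnl2 and Mog had shared increases. Btnl2, which encodes a butyrophilin-like membrane protein, was at 0 in the median control and at most 0.116 CPM, and at 0.132, 1.32 and 2.18 CPM in the lowest, median and highest Dis3 cKO library. The log2 change was 5.74 at p20 (SE 0.82, edgeR adjusted p 5.0e-06) and 6.56 in adults, with no called difference between the stages (0.68, edgeR adjusted p 0.939). Mog, the gene of a myelin protein, rose by 2.81 at p20, although its groups overlapped near 0, and by 4.83 in adults. Gm19299, an lncRNA gene at a higher level, went from a median of 39.8 to 66.0 CPM without overlap at p20 (log2 0.70, edgeR adjusted p 0.00032) and rose by 1.75 in adults, but with ERCC scaling its p20 change was 0.41 (edgeR adjusted p 0.203).

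At levels of 5 CPM or more and with no overlap between the groups, the 4 largest shared increases, Mamdc2, Lmo4, Entpd1 and Dock8, were of protein-coding genes. Mamdc2 ranged from 0.0498 over 0.303 to 1.22 CPM in controls and from 3.70 over 8.996 to 13.3 CPM in Dis3 cKO. The groups were far apart, with a log2 change of 4.496 (SE 0.61, edgeR adjusted p 6.8e-06), and adults showed 2.91. Lmo4, a LIM-domain transcriptional cofactor, rose by 2.54 at p20 and 1.45 in adults. Entpd1, an ectonucleotidase, rose by 1.93 and 1.18, and Dock8, an exchange factor for CDC42, by 1.81 and 1.23. Cldn8, a tight-junction claudin, was further down that order and rose by 1.18 and 1.198. In p20 dcKO, which also lacks Dis3, Mamdc2 fell by 5.58 and Entpd1 fell by 2.697, Dock8 was not called (0.21), and Lmo4 and Cldn8 rose by 1.80 and 1.67, against the same controls. For these 5 genes the difference between the stages was not called, with edgeR adjusted p from 0.120 to 0.997. Of the 12 largest shared increases chosen in this way, 4 lost their p20 call with counts summed per tag.

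Shared decreases included Rnf169 and Sfta2 besides Dis3 and Exosc9. Rnf169, a ubiquitin-binding protein at DNA breaks, was at 131, 139 and 160 CPM in the lowest, median and highest control and at 20.9, 25.7 and 45.5 CPM in Dis3 cKO. The gap between the groups was wide (log2 -2.33, SE 0.16, edgeR adjusted p 2.4e-13), and the adult decrease was smaller, at -0.78 (difference 1.54, edgeR adjusted p 2.6e-05). Sfta2, a surfactant-associated gene, fell by 2.13 and 1.56, and this difference was not called (edgeR adjusted p 0.301). In p20 dcKO, against the same controls, Rnf169 averaged 103 CPM and fell by 0.46, while Sfta2 fell by 1.80, Dis3 fell by 2.25 and Exosc9 fell by 0.82. Of the 12 largest shared decreases, chosen like the increases, 2 lost their p20 call with counts summed per tag.

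**Figure D2:**
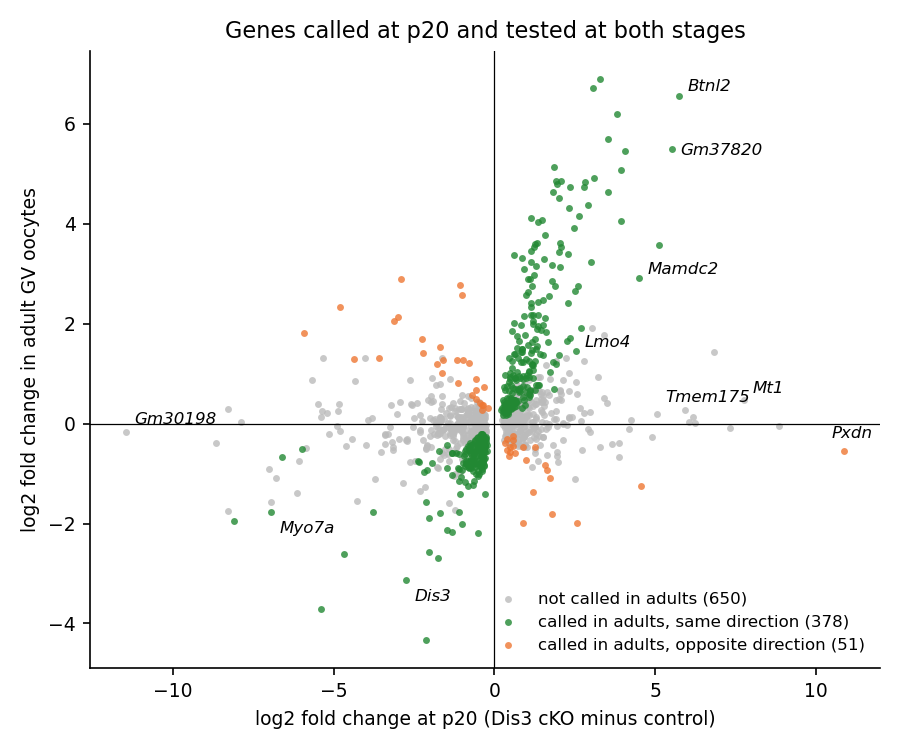
Log2 fold change of Dis3 cKO against control at p20 (horizontal) and in adult GV oocytes (vertical) for the 1079 genes called at p20 and tested at both stages. Green points (378) were called in adults in the same direction, orange points (51) in the opposite direction and grey points (650) were not called there. Green points at the upper right include Btnl2 (5.74 and 6.56), and Pxdn, the largest p20 increase (10.88), lies slightly below 0 on the adult axis.

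By RNA class, called genes were 902 of 12802 protein-coding genes (7.05%), 65 of 1012 lncRNA genes (6.42%) and 93 of 588 pseudogenes (15.8%), beside 7.37% of all. Pseudogenes went mainly down, with 64 lower and 29 higher, and share sequence with their parent genes, so their counts are uncertain. None of 22 snoRNA genes was called, with a median change of 0.51. Of the 17 mitochondrially encoded genes 1 was called, and of 42 genes for replication-dependent histones 5 were.

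The share of all gene counts taken by each class was compared over libraries with a 2-sided exact permutation test on the log2 scale, adjusted over 7 measures. The pseudogene share was 0.276%, 0.295% and 0.320% in the lowest, median and highest control library and 0.247%, 0.266% and 0.284% in Dis3 cKO. The ranges overlapped slightly, and 8 of 8 knockout libraries lay below the control mean (log2 -0.16, exact permutation p 0.00062, adjusted p 0.00435). Within tag 1 the difference was -0.16 (exact permutation p 0.0286, the smallest that 70 regroupings can give) and within tag 2 it was -0.16 (exact permutation p 0.0571). The lncRNA share was 1.11%, 1.19% and 1.26% in controls and 1.14%, 1.19% and 1.23% in Dis3 cKO (log2 0.00, exact permutation p 0.887). Ranges of the protein-coding, mitochondrial, snRNA and snoRNA, and histone shares overlapped, with adjusted p from 0.239 to 0.887 by exact permutation. The protein-coding share did pass adjustment when mitochondrial and rRNA-like genes were left out.

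Gene counts per count of the added ERCC RNA (gene counts per ERCC count) ranged from 1043 over a median of 1269 to 1600 in controls and from 547 over 1087 to 1201 in Dis3 cKO. All 8 knockout libraries lay below the control mean, but the ranges overlapped (log2 -0.35, exact permutation p 0.0197, adjusted p 0.0691). It was -0.44 within tag 1 (exact permutation p 0.0857) and -0.25 within tag 2 (exact permutation p 0.171). The lowest value belonged to Dis3 cKO library 1_4, and without it the difference was -0.22 (exact permutation, adjusted p 0.0917). The difference passed adjustment without control 1_2, Dis3 cKO 1_2 or Dis3 cKO 2_1, and also without mitochondrial and rRNA-like genes. In that last setting its size was nearly the same, while the mitochondrial share was no longer among the measures adjusted, on which the adjusted p depends.

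Genes of known oocyte pathways were read out from 23 lists. Of 562 members tested, 38 were called (6.76%, beside 7.37% of all genes), 13 higher and 25 lower. With counts summed per tag 6 of the 38 kept their call, namely Dis3, Ybx2, Rbm44, Rnf169, Mt1 and St3gal5, and 32 did not. No member was called in 4 lists: oocyte-secreted factors and gap junctions, DNA and histone H3 methylation, solute transporters, and double-stranded RNA sensing with the interferon response. Among regulators of stored messenger RNA, 4 of 22 fell and 1 rose. Rbm44, an RNA-binding protein of germ cells, was at 61.9, 91.0 and 105 CPM in the lowest, median and highest control and at 11.2, 18.1 and 23.1 CPM in Dis3 cKO. The groups did not overlap (log2 -2.31, SE 0.12, edgeR adjusted p 1.3e-16). Its adult change was 0.17 (edgeR adjusted p 0.569), and the difference between the stages was 2.47 (edgeR adjusted p 5.8e-12).

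The other changes in that list were smaller, and the call of Zar1 was lost without Dis3 cKO library 1_3, 1_4 or 2_1. With ERCC scaling neither Zar1 (edgeR adjusted p 0.0556) nor Cpeb2 (edgeR adjusted p 0.129) was called. Ybx2, which packages stored messenger RNA as MSY2, was at 183, 210 and 224 CPM in controls and at 93.0, 124 and 199 CPM in Dis3 cKO, with overlapping groups (log2 -0.68, SE 0.14, edgeR adjusted p 0.00092). Zar1, needed for the first embryonic divisions, fell by 0.37 (edgeR adjusted p 0.0252), and Pabpc1l, the embryonic poly(A)-binding protein, by 0.34 (edgeR adjusted p 0.00776). Cpeb2, a translational regulator that binds the cytoplasmic polyadenylation element, rose by 1.15 from a median of 15.9 to 30.9 CPM (edgeR adjusted p 0.00597). Ybx2, Zar1 and Pabpc1l were also lower in adults, by 0.69, 0.70 and 0.55. In p20 Exosc10 cKO they averaged 138, 302 and 219 CPM, against 207, 413 and 281 CPM in p20 control. Cpeb2 averaged 24.3 CPM there against 17.8 CPM in control, and Rbm44 86.4 against 86.6 CPM.

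Of 39 genes for messenger RNA decay 3 rose and 1 fell, a share near the 7.37% called over all genes. Tob1, which recruits the CCR4-NOT deadenylase, rose by 0.71 (SE 0.16, edgeR adjusted p 0.00407), Cnot6, a deadenylase subunit, by 0.30 (edgeR adjusted p 0.0341), and Xrn1, the 5′ to 3′ exonuclease, by 0.38 (edgeR adjusted p 0.0381). In adults Xrn1 fell, by 0.53 (edgeR adjusted p 0.00149), and the stages differed by -0.93 (edgeR adjusted p 0.00011). Its change in p20 dcKO was -0.87 (edgeR adjusted p 1.8e-07). Upf1, the helicase of nonsense-mediated decay, went from a median of 680 to 535 CPM (log2 -0.37, edgeR adjusted p 0.0109) and was lower in adults too (-0.44). The calls of Cnot6 and Xrn1 were lost when any of 10 and 11 single libraries, respectively, was left out, and scaling to the ERCC counts turned Cnot6 to -0.002 (edgeR adjusted p 0.995) and ended the calls of Xrn1 (0.03) and Tob1 (0.33).

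In the lists of transcription factors, egg, maternal complex and meiotic genes the calls were of small changes, beside 7.37% called over all genes. Of 19 tested oocyte transcription factors Taf4b rose by 0.58 (edgeR adjusted p 0.00239) and Obox7 and Pou5f1 each fell by 0.37 (edgeR adjusted p 0.0243 and 0.00431), and of 12 zona pellucida and fertilization genes Izumo1r, the egg receptor JUNO, fell by 0.52 (edgeR adjusted p 0.0271). Of 21 genes of the subcortical maternal complex and the Nlrp family 3 fell, namely Khdc3 (-0.62), Nlrp9a (-0.32) and Nlrp9c (-0.41), with edgeR adjusted p from 0.00937 to 0.0269. Among 32 meiotic and cell cycle genes, Cdc25b, the phosphatase that activates CDK1 at meiotic resumption, fell without overlap from a median of 97.9 to 61.9 CPM (log2 -0.61, edgeR adjusted p 0.00064) and by 0.87 in adults. Aurka fell by 0.34 (edgeR adjusted p 0.0382), and Mos, the kinase upstream of MAPK in oocytes, rose by 0.22 (edgeR adjusted p 0.0405) but stood at -0.08 with ERCC scaling (edgeR adjusted p 0.769). Leaving out single libraries ended the calls of Mos (any of 12), Aurka (8), Nlrp9c (6), Nlrp9a (5), Izumo1r (4) and Obox7 (control 1_4 or Dis3 cKO 2_2), and ERCC scaling that of Taf4b (0.245). In p20 Exosc10 cKO Cdc25b, Aurka and Mos averaged 62.1, 176 and 346 CPM, against 96.4, 188 and 312 CPM in p20 control.

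For RNA synthesis and processing, 4 of 40 genes of RNA polymerase II and elongation fell and none rose, beside 3.76% lower and 7.37% called over all genes. These were Polr2j, Cdk12, Ccnk and Nelfe, with changes of -0.41, -0.28, -0.37 and -0.42 and edgeR adjusted p from 0.0145 to 0.0440. Ccnk encodes cyclin K, the partner of CDK12. The calls of Nelfe, Cdk12 and Polr2j were lost when any of 13, 5 and 3 single libraries, respectively, was left out. U2af2, which recognises the 3′ splice site, fell without overlap from a median of 91.0 to 62.8 CPM (log2 -0.54, edgeR adjusted p 0.00047) as the single called gene of 43 for splicing. Cpsf2 fell by 0.50 (edgeR adjusted p 0.0180, and 0.0529 without control library 1_1), and Drosha, the nuclease that starts microRNA processing, rose by 0.37 (edgeR adjusted p 0.0152). With ERCC scaling the Drosha change was 0.06 (edgeR adjusted p 0.853) and that of Cdk12 -0.57 (edgeR adjusted p 0.0635). Kdm2b, which recruits a Polycomb complex to CpG islands, fell by 0.56 (edgeR adjusted p 0.00051) and by 1.00 in adults.

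The remaining called list members outside metal response were Rps6kb1 (0.36), Rrp36 (0.64), Sqstm1 (-0.46) and St3gal5. The calls of Rps6kb1 and Rrp36 were lost when any of 12 and 11 single libraries, respectively, was left out, and also with ERCC scaling. St3gal5, the sialyltransferase that makes ganglioside GM3, was at 16.1, 27.6 and 37.5 CPM in the lowest, median and highest control and at 117, 165 and 182 CPM in Dis3 cKO, so the groups were far apart (log2 2.55, SE 0.28, edgeR adjusted p 2.1e-08). In adults the change was 0.83 (edgeR adjusted p 0.0666).

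**Figure D3:**
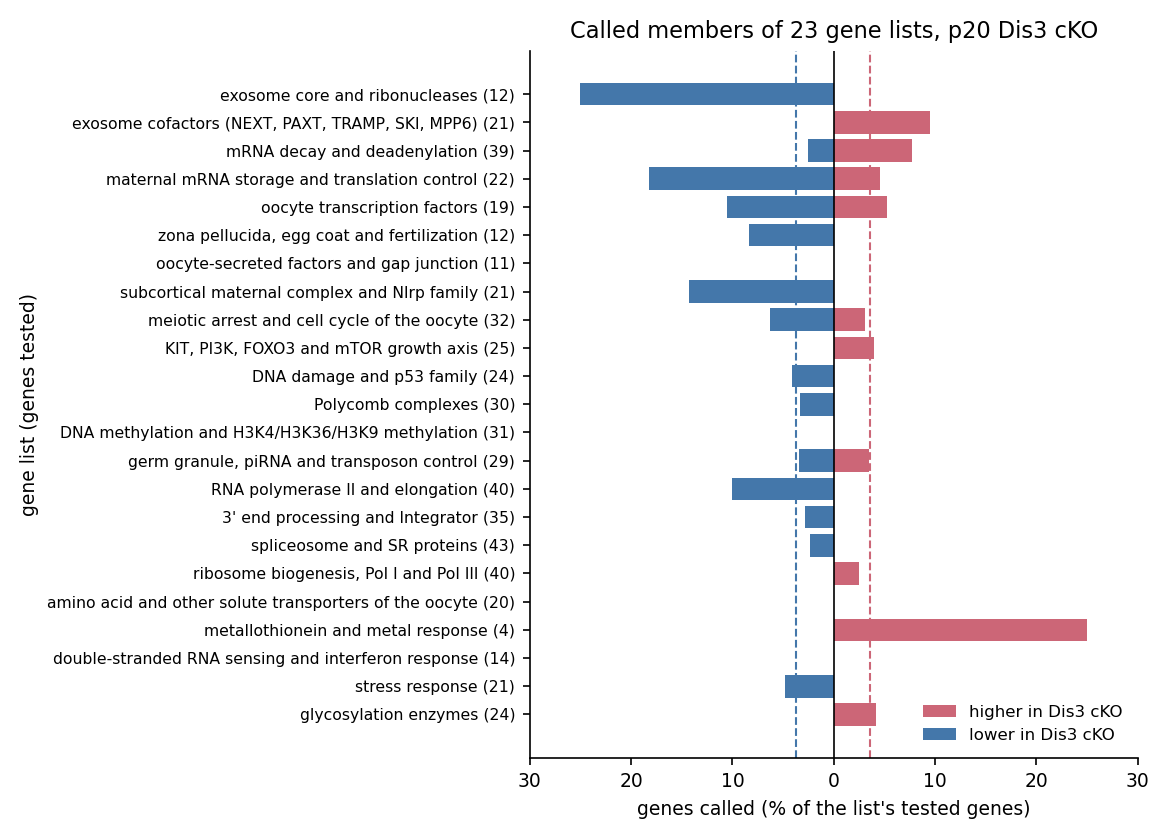
Called members of 23 gene lists in p20 Dis3 cKO, as a percentage of each list's tested genes (number in brackets). Bars to the right are higher and bars to the left lower in Dis3 cKO, and dashed lines are the percentages over all genes tested (3.61% higher, 3.76% lower). The exosome list has 3 of 12 genes lower, Dis3 among them, and most lists lie near the dashed lines.

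Among the most abundant changed RNAs, those described here moved by modest factors, and of them Hjurp alone kept its call with counts summed per tag. D10Wsu102e ranged from 1982 over 2623 to 2884 CPM in controls and from 2634 over 3258 to 3556 CPM in Dis3 cKO, with overlap (log2 0.32, SE 0.09, edgeR adjusted p 0.0176). Hjurp, the chaperone that loads the centromeric histone CENP-A, rose by 0.82 from a median of 571 to 1020 CPM, and Myo10, a filopodial myosin, by 1.27 from 295 to 803 CPM, neither with overlap. Golph3, a Golgi protein, rose by 0.42. Myo10 differed by tag in controls, 177 CPM against 469 CPM on average (edgeR adjusted p 5.3e-06), so its change was 2.14 within tag 1 and 0.73 within tag 2, and in adults it fell by 0.48 (edgeR adjusted p 0.00045). With ERCC scaling the changes of D10Wsu102e (0.02), Hjurp (0.51) and Golph3 (0.11) were not called, with edgeR adjusted p from 0.161 to 0.966.

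On the lower side, Hivep1, a zinc-finger transcription factor, fell by 0.67 and Uchl1, a ubiquitin hydrolase abundant in oocytes, by 0.43, and both were also lower in adults, by 0.95 and 0.54. Rubcn, a negative regulator of autophagy, fell by 0.31 and Trim61 by 0.30, and the call of Trim61 was lost when any of 8 libraries was left out.

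The largest increases at 5 CPM or more were of RNAs that were low in controls, near 0 for Pxdn and Mt1. Pxdn, which encodes the peroxidase peroxidasin of basement membranes, was at 0, 0.0281 and 0.498 CPM in the lowest, median and highest control and at 263, 291 and 334 CPM in Dis3 cKO. The log2 change was 10.88 (SE 0.51, edgeR adjusted p 3.1e-18). Mt1, a zinc-binding metallothionein, was at 0, 0.349 and 0.717 CPM in controls and at 51.1, 77.3 and 101 CPM in Dis3 cKO (log2 7.76, SE 0.33, edgeR adjusted p 2.4e-19). It was the single called gene of the 4 tested for metallothionein and metal response, beside 7.37% called over all genes. In both cases the lowest knockout library stood far above the highest control.

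The promoters of these 2 genes and of Myo7a, a large decrease, are shown, since each gene was near 0 in 1 group and well above it in the other. They run from 250 bases before to 50 after 1 RefSeq start of each gene (GRCm38.p6, 5′ to 3′ on the gene's strand). The RefSeq gene begins upstream of that start for Mt1 (94178883), Pxdn (29936642) and Myo7a (98119522). Matches outside the windows were not counted. Capitals mark matches to TGCNCNC, a loose pattern that takes in the core of the metal response element, searched on both strands. It also takes in other letters, so its matches and shares are not those of the core alone. TAATTG, the element bound by the oocyte factor NOBOX, had no match in them. Of 110 named genes 77 matched the promoter table.
Mt1, chr8:94178839-94179138, plus strand: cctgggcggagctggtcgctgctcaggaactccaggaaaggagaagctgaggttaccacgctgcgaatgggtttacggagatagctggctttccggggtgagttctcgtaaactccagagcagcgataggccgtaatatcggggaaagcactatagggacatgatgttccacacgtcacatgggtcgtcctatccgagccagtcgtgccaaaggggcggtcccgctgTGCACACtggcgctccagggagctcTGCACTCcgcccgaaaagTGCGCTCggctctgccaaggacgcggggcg
Pxdn, chr12:29937786-29938085, plus strand: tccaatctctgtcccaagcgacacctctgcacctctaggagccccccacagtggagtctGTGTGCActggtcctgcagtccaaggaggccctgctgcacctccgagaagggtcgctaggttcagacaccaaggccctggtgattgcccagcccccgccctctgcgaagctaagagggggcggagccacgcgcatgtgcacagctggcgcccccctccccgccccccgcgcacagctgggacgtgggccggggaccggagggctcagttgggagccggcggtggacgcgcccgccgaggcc
Myo7a, chr7:98119444-98119743, minus strand: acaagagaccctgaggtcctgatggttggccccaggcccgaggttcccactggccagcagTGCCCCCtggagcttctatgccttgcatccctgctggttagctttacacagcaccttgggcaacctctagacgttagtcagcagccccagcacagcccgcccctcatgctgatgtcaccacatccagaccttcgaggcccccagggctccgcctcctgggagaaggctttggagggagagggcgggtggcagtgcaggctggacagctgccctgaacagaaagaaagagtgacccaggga
Mt1 held 3 matches to TGCNCNC, Pxdn 1 (on the minus strand, printed as its reverse complement) and Myo7a 1, while a second RefSeq start of Myo7a, not printed, had 2. The motif is common: 51% of 32851 promoters of 300 bases held it, and 59.8% of the called higher, 61% of the called lower and 58.9% of all tested genes with a promoter in the table. TAATTG was in 8% of all promoters. A match describes the letters and not binding.

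The other large increases started from control medians of 0.0299 to 5.78 CPM. Tmem175, a lysosomal potassium channel that overlaps Dgkq, went from 0.697, 1.32 and 3.15 CPM in controls to 44.8, 51.6 and 66.0 CPM (log2 5.05, SE 0.63, edgeR adjusted p 3.8e-07). A930015D03Rik, an lncRNA gene that overlaps H2-T22, H2-T23 and H2-T24, went from a median of 0.527 to 35.5 CPM (6.18), and B020011L13Rik from 0.0560 to 21.7 CPM (7.33). Cntn2, a neuronal adhesion molecule, went from a median of 5.78 to 74.1 CPM (3.66), Kctd21, an adaptor of a ubiquitin ligase, from 2.36 to 47.7 CPM (4.18), and Slc17a6, a vesicular glutamate transporter, from 0.121 to 7.61 CPM (5.499). Gm10401 rose from a median of 0.0299 to 4.75 CPM (6.06). None of these groups overlapped, and the edgeR adjusted p ranged from 1.5e-17 for A930015D03Rik to 9.1e-06 for Cntn2.

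The largest decreases reached 0. Gm30198, an lncRNA gene, was at 15.7, 22.6 and 29.5 CPM in the lowest, median and highest control and had 0 counts in all 8 Dis3 cKO libraries, which is at least 740-fold lower against a floor of 3 counts over the group. Adra1b, an adrenergic receptor, was at 6.08, 10.5 and 12.97 CPM in controls and likewise at 0, at least 331-fold lower. Fitted fold changes of such genes depend on the prior count and are no bounds. Myo7a, a myosin of hair cells and retina, was at 20.8, 27.9 and 31.3 CPM in controls and at 0, 0.0458 and 0.545 CPM in Dis3 cKO (log2 -6.95, SE 0.36, edgeR adjusted p 3.6e-17). Gm7104, a transcribed pseudogene, fell from a median of 40.5 to 0.364 CPM (-6.63, edgeR adjusted p 2.4e-19).

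Others of this kind were Prr15l (median 29.3 CPM in controls), Gm46426 (24.2 CPM), Sh3rf2 (35.5 CPM), Rhbdf1 (21.1 CPM) and Ccdc85a (5.45 CPM), each with a knockout median of at most 0.148 CPM. 5730507C01Rik had 2 counts over the 8 knockout libraries, a ratio with a counting interval of 123 to 3669, and Lrmda had 1, with an interval of 101 to 22179. Nfam1 also had 1 count (interval 87.8 to 19314). These intervals cover counting error only, not the spread between oocytes or the copies made by PCR. The controls of Nfam1 differed among themselves, from 0.0995 to 14.4 CPM. Further lncRNA genes that fell were Gm10466 from a median of 5.91 to 0 CPM, Gm15446 from 39.2 to 1.34 CPM (log2 -4.81) and BC051537 from 11.7 to 1.23 CPM (-3.41). Of the 43 lncRNA genes that rose, the rule for named genes also took Gm15691 (1.43) and A530040E14Rik (0.73), in each case without overlap but not called with ERCC scaling (edgeR adjusted p 0.0585 and 0.243).

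These 24 largest changes, of which 8 lost their call with counts summed per tag (B020011L13Rik, Tmem175, Cntn2, Gm46426, Nfam1, Sh3rf2, Ccdc85a and Rhbdf1), were followed through the other RiboMinus groups. For 18 of the 24 the level differed between p20 Exosc10 cKO and p20 Dis3 cKO. The same was so for 110 of the 157 changes of 3 or more, 573 of the 1171 called genes and 1585 of 15882 tested (9.98%). As the genes were chosen by their Dis3 cKO levels, this count is a description. The dcKO, which also lacks Dis3, was nearer to Dis3 cKO than to control for 8 of the 24, 7 of them increases and 1 a decrease, beside 619 of the 1171 called genes and 8984 of the 15882 tested. Adra1b, for example, averaged 18.2 CPM, Prr15l 24.2 CPM, Myo7a 20.9 CPM and Gm7104 32.6 CPM in dcKO. In adults 5 were called in the same direction, 1 in the opposite, 14 were not called and 4 were not tested, and the effect differed between the stages for 23. The adult control level was nearer to p20 Dis3 cKO than to p20 control for 10 of the 12 increases, 3 of the 12 decreases, 439 of the 1171 called genes and 6314 of the 15882 tested. Pxdn, for example, averaged 143 and 127 CPM in the tags of adult controls, 65.5 and 118 CPM in adult Dis3 cKO, and under 1 CPM in all p20 groups other than Dis3 cKO.

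Within 1 genotype and stage, the level changed 8-fold or more by tag in at least 1 group for 9 of the 24 genes (37.5%), for 26 of the 1171 called genes (2.22%) and for 77 of all tested (0.485%). Mt1 averaged 0.584 CPM in 1 tag of adult controls and 76.3 CPM in the other, and 62.8 to 89.1 CPM in the tags of p20 Exosc10 cKO and dcKO. Cntn2 averaged 3.37 and 42.4 CPM in the tags of dcKO, Tmem175 1.18 and 34.6 CPM, and Rhbdf1 18.5 and 0.287 CPM. Nfam1 averaged 9.90 and 0.108 CPM in the tags of p20 controls. Differences of 8-fold or more between tags thus occurred inside a genotype for these genes, and what the tags share was not tested.

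**Figure D4:**
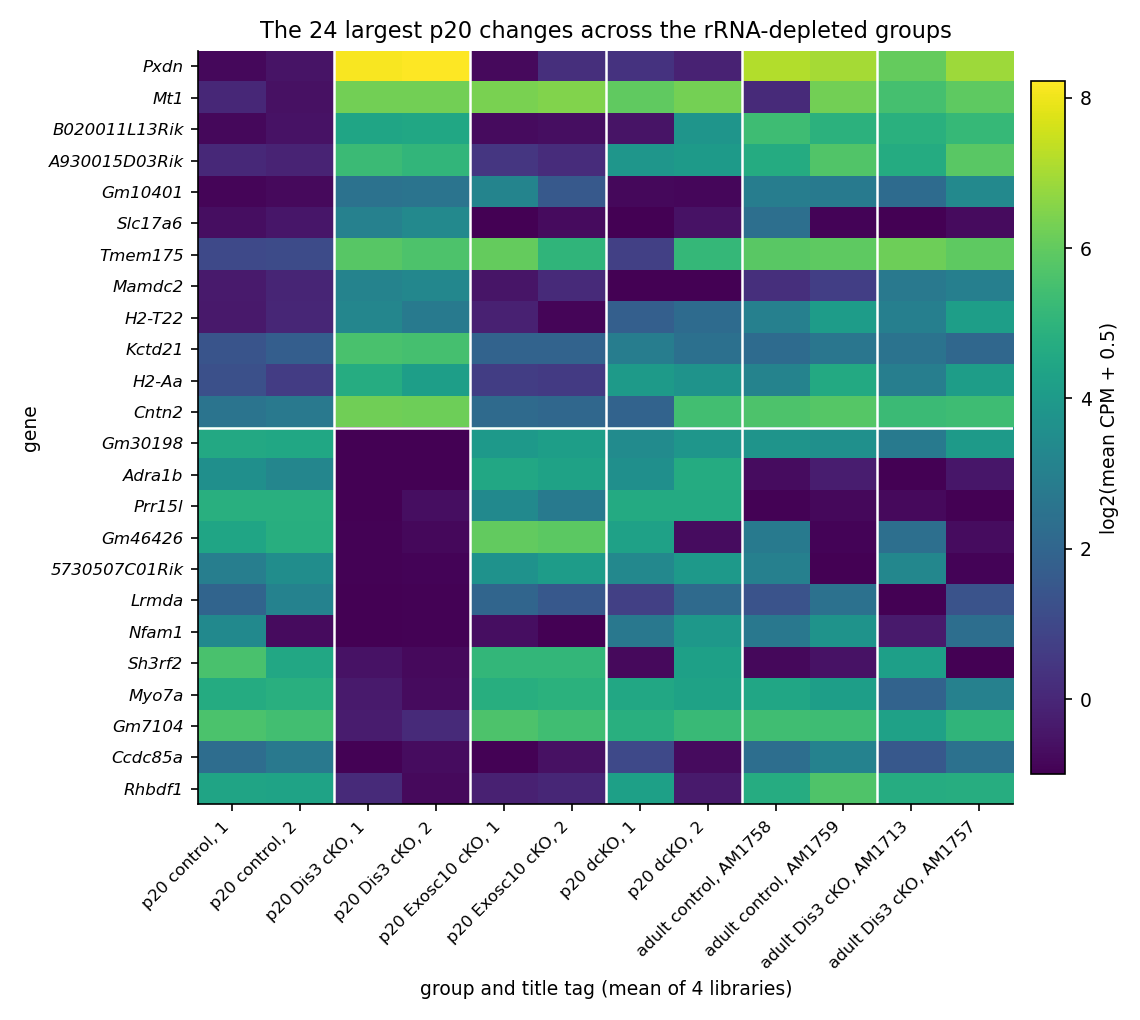
Mean level of the 24 largest p20 changes in the 6 RiboMinus groups, split by title tag (mean of 4 libraries each). Colour is log2 of the mean CPM plus 0.5, with the 12 increases above the white line and the 12 decreases below it. Pxdn is high in p20 Dis3 cKO and in adult groups only, and Mt1 is low in both p20 control tags and in 1 adult control tag.

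Position was not a rule of choice, and the called genes were not spread evenly. On chromosome 12 13.4% of tested genes were called (73 of 545), on chromosome 17 12.8% (85 of 665) and on chromosome 7 9.56% (106 of 1109), against 4.03% on chromosome 10 (29 of 720). Of the 157 changes of 3 or more on the log2 scale, 122 had a chromosome in RefSeq. Of these, 42 (34.4%) were on chromosomes 7, 12 and 17, which hold 16% of the tested genes that have a chromosome. In windows of 10 Mb with at least 20 tested genes the median share called was 5.8%. The highest was 42.4% in chromosome 12 from 20 to 30 Mb (14 of 33 genes), where Pxdn lies, followed by 35% in chromosome 7 from 50 to 60 Mb (7 of 20). Within 10 Mb of Dis3 on chromosome 14, 1 of the 25 other tested genes was called (Mzt1, higher, named after its value was seen). The chromosome and window counts were made after the data were seen.

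Chromosome 17 from 30 to 40 Mb, which holds the major histocompatibility complex, had 35 of 147 genes called (23.8%). Of 12 tested genes with H2 symbols 5 were called (41.7%, beside 7.35% of other genes), 3 higher and 2 lower, a set chosen after the values were seen. H2-Aa, a class II chain, was at 0.506, 1.31 and 2.83 CPM in the lowest, median and highest control and at 7.83, 19.7 and 35.96 CPM in Dis3 cKO, without overlap (log2 3.88, SE 0.47, edgeR adjusted p 2.4e-07). H2-T22, a nonclassical class I gene, rose by 4.27 from a median of 0.287 to 6.55 CPM, and H2-DMa, which loads peptides on class II, by 1.68. H2-K1, a classical class I gene, fell by 1.70 from a median of 8.52 to 2.81 CPM and H2-T10, a transcribed pseudogene, by 5.21 from 7.76 to 0 CPM. In adults the H2-Aa, H2-T22, H2-K1 and H2-T10 changes lay between -0.38 and 0.21 and did not pass the test, and H2-DMa rose by 2.55. H2 genes differ in sequence between mouse strains and resemble each other, so reads may be shared or missed among them.

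**Figure D5:**
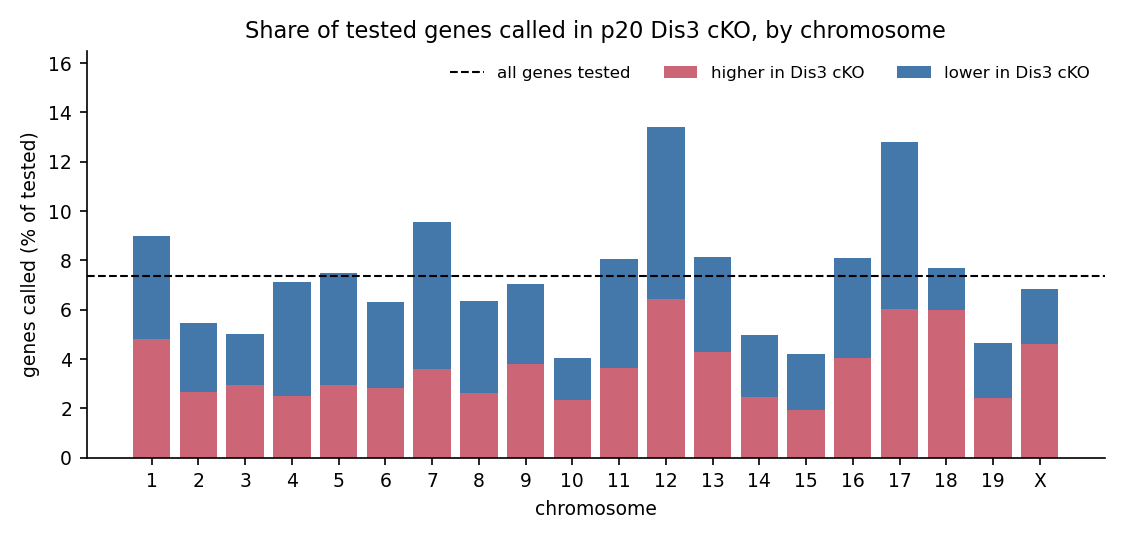
Share of tested genes called in p20 Dis3 cKO for each chromosome, split into genes higher and lower in the knockout. The dashed line is the share over all genes (7.37%). Chromosomes 12 (13.4%) and 17 (12.8%) stand above it and chromosome 10 (4.03%) below.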

How the data were processed

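The authors deposited 1 table of gene counts per single oocyte, used as raw counts. Per the submitters' processing notes the tools were cutadapt 2.5, STAR 2.7.2a, SAMtools 1.9 and HTSeq 0.9.1 with build mm10. Their roles, the annotation release and the use of strand are not given in the sources used here. Counts were tested with edgeR 4.0.16 (TMM, filterByExpr, quasi-likelihood F test, Benjamini-Hochberg adjusted p under 0.05) in 1 fit of the 4 p20 RiboMinus groups. The adult groups were fitted apart, and a fit of both stages tested the difference. An SE is the size of the fitted change over the root of its F statistic. Dispersion is estimated across genes, and the fit was tested on simulated counts. No pair of libraries in a group agreed within sampling noise. Symbols (99.4% of 55487 IDs), types and promoters came from RefSeq, GRCm38.p6.

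Named genes were Dis3, Exosc10, the 12 largest changes per direction (mean of 5 CPM or more, no overlap), 4 lncRNA genes and the 5 most abundant called genes per direction, and called list members. Some items that the rules choose are not reported here. Genes called at both stages, H2 genes, windows and tag switches were added after the values were seen. Members and lists were chosen with earlier results of these data known. Alternatives were DESeq2 1.42.0, ERCC or other size factors, no low-count filter, other designs, single tags, and leaving out each library.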

Additional observations from a re-analysis of the deposited data

Results flagged for a closer look

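In 12 of 94 sets of 8 libraries the highest or lowest value stood apart by Dixon's test, which by chance picks about 1 set in 20. That rate does not hold for sets with most libraries at 0: for Lrmda and Nfam1 7 libraries were at 0 and 1 had a single count. Dis3 cKO library 1_4 had the lowest number of gene counts per ERCC count, 547 with the next at 898, and the highest Dis3 level, 4.12 CPM with the next at 2.37. The same library had the highest A930015D03Rik (49.1 CPM) and Gm10466 (0.733 CPM). In other Dis3 cKO libraries the high values were 9.24 CPM for Gm10401 and 0.0727 CPM for Lrmda (2_1), 0.438 CPM for Prr15l (2_4), 0.0712 CPM for Nfam1 (2_3), 0.451 CPM for Ccdc85a (2_2) and 1.42 CPM for Rhbdf1 (1_1). Among controls they were 0.696 CPM for B020011L13Rik and 1.22 CPM for Mamdc2 (both 2_1). Apart from A930015D03Rik and Gm10401, the gene values that stood apart were at most 4.12 CPM.

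The adult effect of the knockout was unlike that at p20 (edgeR interaction, Benjamini-Hochberg adjusted p under 0.05) for 31 of 40 genes named for size, lncRNA type or abundance, beside 9.32% of all genes. Most of the 40 were chosen by their p20 change, which enters the difference, so the count is a description. The adult change minus the p20 change, on the log2 scale, was -11.44 for Pxdn, -10.69 for Slc17a6, -7.46 for B020011L13Rik, -7.30 for Mt1, -6.07 for A930015D03Rik and -6.06 for Gm10401. It was -4.89 for Tmem175, -4.32 for Kctd21, -4.27 for H2-Aa, -4.22 for H2-T22 and -4.08 for Cntn2. Among genes that fell at p20 it was 13.88 for Sh3rf2, 11.58 for Gm30198, 9.73 for Adra1b, 9.09 for Prr15l, 8.64 for 5730507C01Rik, 8.27 for Gm46426, 6.68 for Lrmda and 6.28 for Nfam1. For Gm7104 it was 5.96, for Rhbdf1 5.47, for Gm10466 5.41, for Ccdc85a 5.33, for Myo7a 5.18, for Gm15446 4.66 and for BC051537 3.18. Adra1b averaged 0.225 CPM in adult controls and 0.118 CPM in adult Dis3 cKO, and Prr15l 0.0408 and 0.0475 CPM. Near 0 in both adult groups, these genes had no adult change tested, and their difference restates the decrease at p20. Several other adult values rest on 1 tag. Sh3rf2 averaged 18.1 and 0.00892 CPM in the tags of adult Dis3 cKO, and Slc17a6 4.64 and 0.0304 CPM in those of adult controls. Mt1 averaged 0.584 and 76.3 CPM in the tags of adult controls and 45.2 and 60.7 CPM in adult Dis3 cKO. Gm46426 averaged 6.44 and 0.0283 CPM in adult controls and 4.70 and 0.112 CPM in adult Dis3 cKO, and 5730507C01Rik 7.67 and 0 CPM, and 9.10 and 0.0273 CPM. Lrmda averaged 0 and 2.05 CPM and Nfam1 0.295 and 4.52 CPM in the tags of adult Dis3 cKO. Fitted values of genes at or near 0 depend on the prior count and are no bounds. Smaller differences were -1.86 for Gm15691, -1.76 for Myo10, -1.19 for A530040E14Rik, -0.69 for Hjurp and 1.03 for Gm19299.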

How the results depend on the processing

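Against 1171 calls, tag 1 libraries alone gave 777, tag 2 libraries alone 365 and counts summed per group and tag 286, with fewer libraries in each. DESeq2 gave 1510 calls, 1169 of them among the 1171. Leaving out 1 library gave 949 (without Dis3 cKO 2_1) to 1409 (without control 2_4). A fit of only p20 control and p20 Dis3 cKO called 1566 genes. With the title number as a replicate block in that 2-group fit 1148 were called, 871 of them among the 1171. Same-numbered libraries did not deviate together (correlations of -0.343 to 0.0894, 1 of 8 best matched by its own number), so no pairs by number were seen. The labels do not say what the numbers stand for, and this check cannot exclude pairs. With ERCC scaling adult calls were 6843, of which 699 (10.2%) were higher against 2405 of 4305 with TMM, calls of the difference between stages 583 and of tag within controls 25. Without the low-count filter the tag gave 116 calls in controls and 21 in Dis3 cKO. ERCC scaling reversed Cnot6 (-0.0024) and Mos (-0.0812) and ended the calls of 24 further genes among the 110 named. The genes shared between stages were not recounted under it. Of the 110, calls were lost for 57 with counts summed per tag (also Gm19299, A530040E14Rik, Gm10466 and H2-K1). Not all of the 110 were tested in the smaller fits. Among genes with a value there, calls were lost for 46 of 105 with tag 2 alone, 23 of 104 with tag 1 alone and 10 of 105 under the replicate block. The cause was not tested. With DESeq2 none of the 110 changed direction or side of the threshold.

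Gene counts per ERCC count ranged from -0.385 to -0.223 on the log2 scale when 1 library was left out, and passed adjustment without control 1_2, Dis3 cKO 1_2 or Dis3 cKO 2_1. Without mitochondrial and rRNA-like genes it was -0.3453, beside -0.345 with them, and passed adjustment over a smaller family of measures. There the share of protein-coding genes changed by 0.002064 (exact permutation, adjusted p 0.00186). The share of pseudogenes changed by -0.1555 in tag 1 and -0.1615 in tag 2, neither past adjustment, with 4 libraries against 4. Low counts limit the genes under 1 CPM most.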
